A study of Homo sapiens with 42 samples.

Results

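A bidirectional promoter is a stretch of DNA from which a pair of genes on opposite strands is transcribed in diverging directions. The pairs described here were protein-coding genes of the GENCODE annotation of hg38, on the autosomes, whose canonical transcription start sites (TSSs) faced away from each other with at most 1000 bp between them. The rule found 957 pairs, made of 1842 genes, or 9.64% of the 19111 autosomal protein-coding genes. The pairs fell into 886 loci because 71 genes belonged to more than 1 pair, through read-through or closely related gene models, so the pairs are not all independent. A further 55 pairs whose first exons overlap head to head were not counted. The window of a pair ran from 1500 bp outside one TSS to 1500 bp outside the other, and pairs are written with the minus-strand gene first. They were compared with 10548 solitary promoters, each 1500 bp on either side of a TSS with no canonical TSS of another annotated gene within 5 kb, and with 1836 promoters in which the divergent partner was a long noncoding RNA (lncRNA).

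The libraries were chromatin immunoprecipitations with sequencing (ChIP-seq) from a pair of non-small cell lung cancer lines. NCI-H661 is a large cell carcinoma line, untreated here, that itself expresses DPPA2 and DPPA4, DNA-binding partners best known from embryonic stem cells, and that the study describes as deficient in the chromatin remodeler SMARCA4. It was profiled for DPPA2, DPPA4 (with an antibody to its N terminus) and 6 histone modifications in 2 replicates each, and for KDM2A and SUZ12 in 1 library each. NCI-H1299 does not express DPPA2 or DPPA4. All NCI-H1299 libraries came from a sorted stable line, named DOVE, that carries FLAG-tagged DPPA2 and V5-tagged DPPA4 behind a doxycycline-responsive element, and was given water (control) or 2 µg/mL doxycycline (DOX) for 7 days. Its H3K27ac, H2AK119ub, H3K4me1, H3K36me3 and H3K9me3 were profiled in 2 replicates per condition. No NCI-H1299 library used here measured DPPA2 or DPPA4, so the induction itself was not checked here, and the control and DOX cells are 1 engineered line. The study itself reports Western blots of the induced proteins and binding maps of both factors in NCI-H1299 cells given DOX. The deposited lists held 30041 to 127865 islands per NCI-H661 library and 12301 to 103384 per NCI-H1299 library. H3K27ac lay at the promoters of 3 of 4 epithelial markers in NCI-H661 (EPCAM, KRT8 and KRT18) and at 1 of 4 in the NCI-H1299 controls (KRT18), at VIM and ZEB1 of 3 mesenchymal markers in both, and at none of 2 hepatocyte and 2 neuronal markers.

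Most bidirectional promoters sit in CpG islands, lack a TATA box and drive genes that nearly every cell uses, such as those of DNA repair, mitochondria, translation and histones. H3K27ac marks active promoters and enhancers, H3K4me1 flanks active promoters and covers enhancers, and H3K36me3 is laid down behind elongating RNA polymerase over gene bodies. H2AK119ub is deposited by Polycomb repressive complex 1, SUZ12 is a core subunit of Polycomb repressive complex 2, and KDM2A is a demethylase of H3K36 that binds unmethylated CpG DNA. H3K36me2 lies between genes and over gene bodies, and H3K9me3 marks constitutive heterochromatin.

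The distance between the TSSs of a pair had a median of 233 bp (interquartile range 121 to 401) and ran from 11 to 1000 bp. It was at most 100 bp in 184 pairs, 101 to 200 bp in 227, 201 to 500 bp in 378 and 501 to 1000 bp in 168. A CpG island lay in 97.7% of the windows (935 pairs), against 64.0% of solitary promoters and 94.7% of the lncRNA pairs. The shares of marks in each group of libraries are therefore also given against the 6753 solitary promoters with a CpG island, while the counts across lines and with DOX are against all solitary promoters. Genes were grouped by the first letters of their symbol alone, so a group can hold genes of other function. FOXL2NB and FOXRED1, for example, counted as developmental transcription factors, and PSME3IP1 as a proteasome gene. Gene groups differed in how often they used this layout, with 35.1% of 74 histone genes, 33.3% of 78 mitochondrial ribosome genes and 28.0% of 125 respiratory chain and mitochondrial import genes in a pair. The shares were 16.3% of 49 proteasome genes, 16.1% of 93 cytosolic ribosome genes, 8.33% of 48 collagen genes, 7.24% of 525 zinc finger genes and 2.79% of 179 developmental transcription factor genes, beside 9.64% over all genes.

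The DNA between the TSSs of 7 pairs is shown, on the plus strand of hg38 and from the first base of one transcript to the first base of the other, because the values of these pairs recur in the results. They are a pair of close housekeeping genes (SURF1/SURF2, for assembly of cytochrome c oxidase and a neighbor of less certain function), the histidyl-tRNA synthetases of cytosol and mitochondria (HARS1/HARS2), the type IV collagen chains of basement membranes (COL4A1/COL4A2), a mitochondrial chaperone and a ribosomal RNA methyltransferase (DNAJC30/BUD23), the mitochondrial seryl-tRNA synthetase and a mitochondrial ribosomal protein (SARS2/MRPS12), the pair with the highest DPPA2/4 peak folds of those shown (SDF4/B3GALT6), and a pair with the testis-specific kinase gene TSSK3 (FAM229A/TSSK3). Capitals mark matches on either strand to the CCAAT box (CCAAT), the GC box (GGGCGG), the ETS-family core (CGGAAGT), NRF1 (GCATGCGC), YY1 (AAGATGGC), the palindrome CTCGCGAG and TATAAA.
SURF1/SURF2, chr9:133356487-133356550: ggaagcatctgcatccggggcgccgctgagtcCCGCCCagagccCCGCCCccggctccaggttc
HARS1/HARS2, chr5:140691370-140691455: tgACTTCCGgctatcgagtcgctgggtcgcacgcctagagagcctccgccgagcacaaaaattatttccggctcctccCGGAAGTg
COL4A1/COL4A2, chr13:110307157-110307284: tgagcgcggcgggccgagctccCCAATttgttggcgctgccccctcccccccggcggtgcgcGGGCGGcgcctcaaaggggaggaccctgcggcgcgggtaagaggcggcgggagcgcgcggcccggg
DNAJC30/BUD23, chr7:73683453-73683597: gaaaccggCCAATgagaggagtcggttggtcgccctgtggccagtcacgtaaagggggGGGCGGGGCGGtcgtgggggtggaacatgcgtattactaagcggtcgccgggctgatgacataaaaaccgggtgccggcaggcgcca
SARS2/MRPS12, chr19:38930763-38930944: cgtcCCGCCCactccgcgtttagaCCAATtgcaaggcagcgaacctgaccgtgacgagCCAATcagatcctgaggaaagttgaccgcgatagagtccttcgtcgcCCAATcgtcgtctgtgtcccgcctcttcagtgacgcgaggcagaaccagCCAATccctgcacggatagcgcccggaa
SDF4/B3GALT6, chr1:1232001-1232237: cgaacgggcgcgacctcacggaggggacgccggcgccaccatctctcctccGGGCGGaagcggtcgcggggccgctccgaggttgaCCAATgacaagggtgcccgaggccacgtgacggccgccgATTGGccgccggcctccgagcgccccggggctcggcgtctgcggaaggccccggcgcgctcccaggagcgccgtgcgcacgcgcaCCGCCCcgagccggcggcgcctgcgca
FAM229A/TSSK3, chr1:32362485-32362539: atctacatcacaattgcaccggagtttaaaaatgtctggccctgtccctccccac

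The SURF1/SURF2 stretch held 2 GC boxes, HARS1/HARS2 held an ETS match near each end, and SARS2/MRPS12 held 4 CCAAT boxes and 1 GC box. FAM229A/TSSK3 held none of the 7 motifs and 1 CpG, against 42 CpGs in SDF4/B3GALT6. A match describes the letters in the window and is not evidence of a bound factor. Over the 250 bp before and 50 bp after the TSS, searched on both strands, the ETS core stood at 25.2% of genes in pairs, against 6.75% of solitary promoters, 9.80% of solitary promoters with a CpG island and 9.87% of all coding promoters. The NRF1 motif stood at 7.49% of pair genes and 4.83% of solitary CpG island promoters, the YY1 motif at 8.74% and 4.50%, the palindrome at 2.77% and 1.64%, and the CCAAT box at 41.2% and 32.8%. The GC box was less frequent at pair genes (74.0%) than at solitary CpG island promoters (78.8%), and TATAAA stood at 3.80% of pair genes, 5.06% of solitary CpG island promoters and 11.6% of all solitary promoters. Windows of the genes in a close pair overlap, so 1 match can serve both genes. Over all coding promoters the shares were 35.7% for CCAAT, 61.7% for the GC box, 4.20% for NRF1, 4.05% for YY1, 1.47% for the palindrome and 9.74% for TATAAA.

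A mark was called at a window when both replicates had an island or peak there that passed the limits of the study (log2 fold over input above 1 and FDR below 0.05). Reads given for a pair are the deposited ChIP counts of the islands that touch its window, which may reach beyond it, and a value of 0 says that no island passed, not that no read fell there. Shares are given with 95% Wilson intervals, which cover counting error over promoters only. Libraries, not promoters, are the replicates, and with 2 libraries per group the smallest two-sided exact permutation p is 0.333, so the shares of each library are shown in place of a test.

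In NCI-H661, divergent coding pairs were nearly all acetylated and few carried Polycomb marks. H3K27ac was called at 907 of 957 pairs (94.8%, interval 93.2 to 96.0%), against 47.6% of solitary promoters, 67.6% of those with a CpG island and 79.7% of lncRNA pairs. H2AK119ub was called at 109 pairs (11.4%, 9.53 to 13.6%), against 26.6% of solitary promoters, 35.9% of those with a CpG island and 26.7% of lncRNA pairs. SUZ12, from 1 library, had a peak at 28 pairs (2.93%, 2.03 to 4.20%), against 18.8% of solitary promoters, 25.8% of those with a CpG island and 15.9% of lncRNA pairs. H3K9me3 was called at 7 pairs (0.731%) against 5.03% of solitary promoters and 4.50% of those with a CpG island, and H3K36me2 at 15 pairs (1.57%) against 6.66% and 5.69%.

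The difference was present in each library taken alone. H3K27ac lay at 94.8% and 97.5% of pairs in the 2 NCI-H661 libraries, or 1.95 and 1.65 times its share of solitary promoters and 1.41 and 1.24 times its share of solitary CpG island promoters. H2AK119ub lay at 15.4% and 23.8% of pairs, or 0.522 and 0.532 times the solitary share and 0.391 and 0.452 times the CpG island share. The island lists behind these H2AK119ub values differ in size, with 44537 islands in replicate 1 and 110357 in replicate 2, and the share of solitary promoters was likewise higher in replicate 2. For SUZ12, 28 pairs with a narrow peak became 75 (7.84%) when its broad islands were used, against 27.7% of solitary promoters and 34.8% of those with a CpG island.

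**Figure D1:**
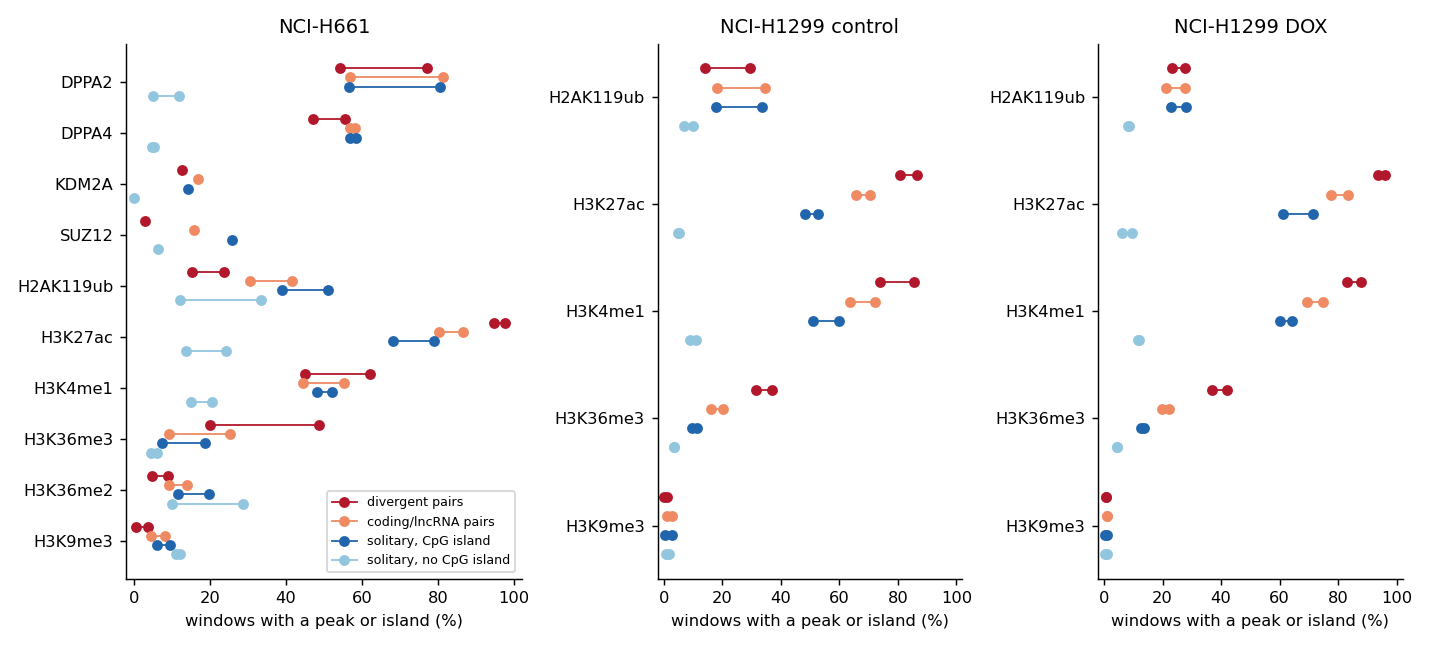
Percentage of promoter windows with a peak or island in each library, by mark (vertical) in NCI-H661, NCI-H1299 control and NCI-H1299 DOX. Points are libraries, and a line joins replicates. The classes are divergent coding pairs, lncRNA pairs, solitary promoters with a CpG island and solitary promoters without one. In NCI-H661 the pairs sit at 94.8% and 97.5% for H3K27ac and at 15.4% and 23.8% for H2AK119ub. The solitary CpG island promoters sit at 68.1% and 78.9% for H3K27ac and at 39.1% and 51.1% for H2AK119ub, so the pairs lie beyond them in opposite directions.

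The NCI-H1299 line showed the same order for acetylation, and for H2AK119ub the order depended on the condition and on the promoters compared. H3K27ac was called at 736 pairs (76.9%) of the controls against 28.5% of solitary promoters and 42.5% of those with a CpG island, and at 893 pairs (93.3%) with DOX against 40.5% and 60.3%. H2AK119ub was called at 75 pairs (7.84%) of the controls, below the 8.83% of solitary promoters, 12.01% of those with a CpG island and 12.4% of lncRNA pairs. With DOX it was called at 145 pairs (15.2%), against 10.8%, 14.8% and 14.0%. In single libraries the ratio of pairs to solitary promoters for H2AK119ub was 1.00 and 1.17 in the controls and 1.31 and 1.33 with DOX, but 0.781 and 0.877 in the controls and 1.02 and 0.998 with DOX when both classes were limited to CpG islands. All 4 CpG island ratios in NCI-H1299 lay above both NCI-H661 ratios (0.391 and 0.452). The NCI-H1299 H2AK119ub lists were shorter (20170 to 32590 islands), and the part of list length in this difference was not tested.

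H3K4me1 was called at 376 pairs (39.3%) in NCI-H661 against 27.2% of solitary promoters and 35.8% of those with a CpG island. In NCI-H1299 it was called at 660 pairs (69.0%) of the controls against 30.8% and 44.02%, and at 743 (77.6%) with DOX against 37% and 52.7%. H3K36me3 was called at 171 pairs (17.9%) in NCI-H661 against 5.1% of solitary promoters and 5.91% of those with a CpG island. In NCI-H1299 it was called at 223 pairs (23.3%) of the controls against 4.87% and 6.16%, and at 266 (27.8%) with DOX against 6.52% and 8.31%. In NCI-H661 the H3K4me1 ratio to solitary CpG island promoters was 1.20 in replicate 1 and 0.937 in replicate 2, so its direction was not shared by the libraries. H3K9me3 was called at 0 pairs of the controls, which allows a share of up to 0.400% by the Wilson interval, against 0.18% of solitary promoters and 0.207% of those with a CpG island, and at 3 pairs (0.313%) with DOX against 0.171% and 0.163%.

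**Figure D2:**
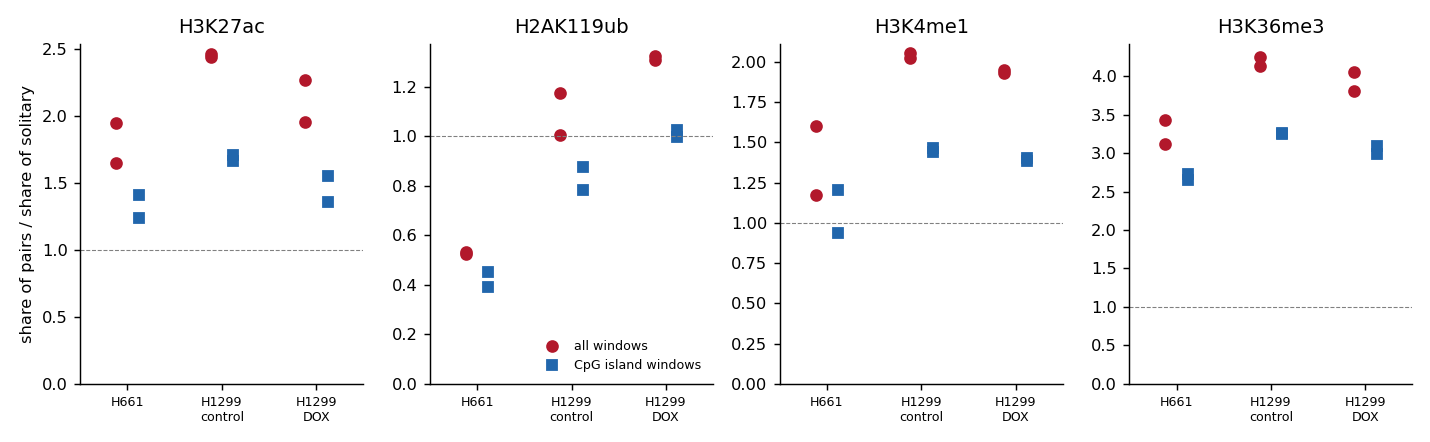
Ratio of the share of divergent pairs with a mark to the share of solitary promoters, for each library (points) of NCI-H661, NCI-H1299 control and NCI-H1299 DOX, against all solitary promoters and against those with a CpG island; the dashed line is a ratio of 1. H3K27ac and H3K36me3 lie above 1 in every library shown, and H2AK119ub lies at 0.391 to 0.532 in NCI-H661 and at 0.781 to 1.33 in NCI-H1299.

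A pair window covers the starts of 2 genes and a solitary window 1, so the classes were also compared over the 1500 bp inside each gene alone. This comparison was added after the data were seen. H3K27ac was called there in both NCI-H661 replicates at 88.3% of the 1842 genes in pairs, 45.8% of solitary genes and 65.8% of solitary CpG island genes. For H2AK119ub the shares were 7.33%, 24.1% and 33.0%, and for SUZ12 2.01%, 17.7% and 24.7%. H3K36me3, which seldom starts this close to a TSS, was at 9.50%, 4.19% and 5.01%. In 788 pairs (82.3%) both genes carried H3K27ac in their first 1500 bp, in 117 pairs 1 gene did, and in 52 neither did. H2AK119ub, in contrast, was called inside both genes of 30 pairs and inside 1 gene of 75.

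Averaged over pairs, the marks lay at like levels on both sides of the midpoint. Every pair was set with its minus-strand gene on the left, so this average does not show that single pairs were symmetric. In the first 1500 bp, H3K4me1 was called in NCI-H661 inside both genes of 112 pairs and inside 1 gene of 231. For H3K36me3 these counts were 28 and 129. H3K27ac covered 60.5% and 67.3% of pairs at the midpoint between the TSSs in the 2 NCI-H661 libraries, and rose to 83.6% and 90.4% at 350 to 450 bp on either side. At solitary CpG island promoters its coverage was highest inside the gene, at 150 to 250 bp, at 62.5% and 74.1%. On the upstream side of these promoters H3K27ac reached 39.7% (at -350 bp) in replicate 1 and 54.4% (at -50 bp) in replicate 2. Both outer flanks of the window held at least 200 bp of H3K27ac in 85.9% and 91.9% of the pairs with an island, against 66.0% and 74.1% of solitary promoters. H3K4me1 was nearly absent from the midpoint (1.13% and 1.86% of pairs) and reached 38.02% and 20.8% at 1350 to 1450 bp. H3K36me3 lay at 0.0930% and 0.0737% of midpoints and rose on both sides of the average. It reached 47.5% and 24.0% of pairs at about 3.6 kb on the plus-strand side, and 44.1% and 23.7% on the minus-strand side. At solitary CpG island promoters H3K36me3 reached 29.0% and 15.2% on the side of the gene. Upstream of them, where by definition no other gene has its canonical TSS within 5 kb, it reached 5.35% and 3.27%.

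**Figure D3:**
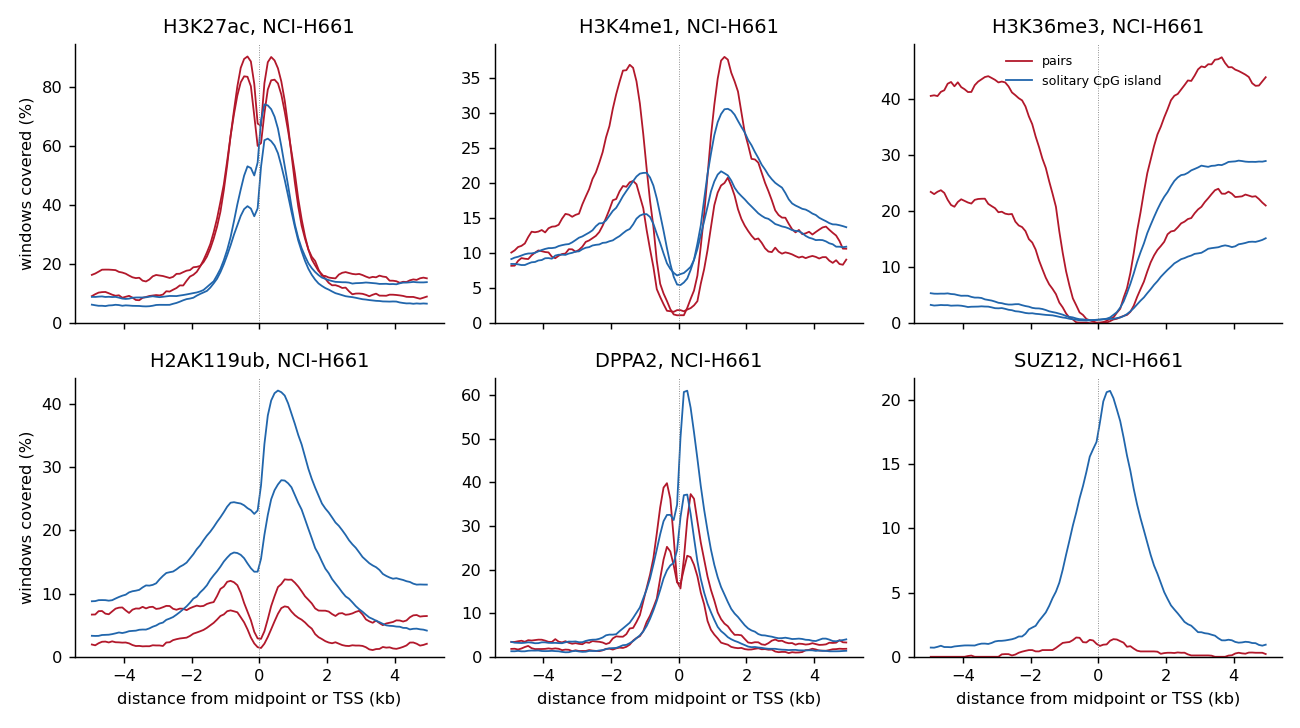
Percentage of windows covered by an island or peak in 100 bp bins, from 5 kb on the minus-strand side to 5 kb on the plus-strand side of the midpoint of a pair, or of the TSS for solitary CpG island promoters, in the replicates of NCI-H661. H3K27ac has a dip at the midpoint of pairs (60.5% and 67.3%) between 2 crests, H3K4me1 and H3K36me3 are nearly absent from the center, and H2AK119ub is lower at pairs throughout.

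H3K36me3 was then read over whole gene bodies, as a mark of transcription of each partner. A gene was counted as covered when islands lay over at least 25% of it in both replicates, in the 842 pairs in which both transcripts were at least 3000 bp long. In NCI-H661 both genes were covered in 184 pairs (21.9%, 19.2 to 24.8%), 1 gene in 232 and neither in 426. Of all genes in these pairs 35.6% were covered, against 17.0% of solitary genes and 23.8% of solitary CpG island genes. Where 1 gene was covered, its partner was covered in 61.3% of cases. In the NCI-H1299 controls both genes were covered in 173 pairs, 1 in 296 and neither in 373, and with DOX in 238, 312 and 292.

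Examples show both arrangements. HSPD1 and HSPE1, the mitochondrial chaperonin and its co-chaperonin, were both covered in all 6 libraries, HSPD1 over 77.1 to 98.9% and HSPE1 over 26.1 to 89.5% of their length. PRKDC, the DNA-dependent protein kinase, was covered over 69.2 to 97.8% and its partner MCM4, a subunit of the replicative helicase, over 82.2 to 97.9%. GART, of purine synthesis, was covered over 38.7 to 84.2% and SON, a splicing cofactor, over 41.8 to 78.6%. In these pairs every library marked both partners. TAP1, the peptide transporter of antigen presentation, was covered over 35.3 to 79.9% in the 6 libraries, whereas its partner PSMB9, an immunoproteasome subunit, was covered over 0 to 4.43%. COL4A1 and COL4A2 had no H3K36me3 island in any library.

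**Figure D4:**
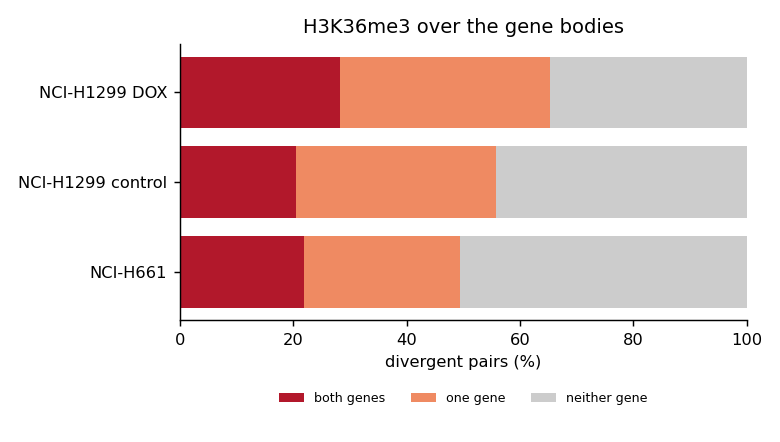
Share of the 842 divergent pairs with both transcripts of at least 3000 bp in which both genes, 1 gene or neither was covered by H3K36me3 over at least 25% of its length in both replicates, for NCI-H661, NCI-H1299 control and NCI-H1299 DOX. Both genes were covered in 21.9%, 20.5% and 28.3% of pairs.

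Acetylation of the pairs was shared between the lines. Over the 6 H3K27ac libraries (2 each of NCI-H661, control and DOX), 722 pairs (75.4%) had an island in every one, against 25.4% of solitary promoters and 56.8% of lncRNA pairs. Only 14 pairs (1.46%) had none, against 35.2% of solitary promoters. These were DCST2/DCST1, DMGDH/BHMT2, SNCB/EIF4E1B, H2AC1/H2BC1, OR11A1/OR2H1, TRIM50/FKBP6, TMEM176B/TMEM176A, DYDC1/DYDC2, PLCZ1/CAPZA3, COL4A1/COL4A2, DUOX2/DUOXA2, LYPD4/DMRTC2 and a pair of overlapping gene models at BOLA2 and SLX1B, and among them are sperm and testis genes (PLCZ1, CAPZA3, DCST1, H2AC1), olfactory receptors and enzymes of specialized tissues (DUOX2, DMGDH). BOLA2 and SLX1 have near-identical copies on chromosome 16, so reads there may not have been placed uniquely.

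The gene groups followed the class. H3K27ac was called in NCI-H661 at all 27 pairs with a mitochondrial ribosome gene, 35 of 36 with a respiratory chain or import gene, all 16 with a cytosolic ribosome gene, all 9 with a proteasome gene, 13 of 14 with a histone gene, 30 of 32 with a zinc finger gene and 3 of 4 with a developmental transcription factor gene. At the 2 collagen pairs it was called at neither, and both carried H2AK119ub and SUZ12. Over the mitochondrial ribosome, respiratory chain, cytosolic ribosome and proteasome pairs, SUZ12 was called at 0 of each group, where its share over all pairs was 2.93%. It was called at 2 of the 4 pairs of the developmental transcription factor group and 1 of the 32 zinc finger pairs. The 4 pairs were FOXM1/RHNO1, FOXL2/FOXL2NB, SRPRA/FOXRED1 and FOXA1/TTC6, and SRPRA/FOXRED1 entered the group by its symbol alone. Few pairs separated the lines, with 5 pairs (0.522%) acetylated in both NCI-H661 and in none of the 4 NCI-H1299 libraries, against 5.79% of solitary promoters, and 1 pair in the reverse.

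The 5 pairs specific to NCI-H661 by this count were FAM229A/TSSK3, the small heat shock genes CRYAB/HSPB2 and an overlapping read-through model of the latter, PRAC1/PRAC2, and TRPM5/KCNQ1, a pair of ion channel genes. FAM229A/TSSK3 had 17 and 86 H3K27ac reads in NCI-H661, CRYAB/HSPB2 24 and 72, PRAC1/PRAC2 16 and 64, and TRPM5/KCNQ1 16 and 28, and all stood at 0 in the 4 NCI-H1299 libraries. PNMA2/DPYSL2 was the reverse, with 0 in NCI-H661, 16 and 13 in the controls and 52 and 9 with DOX. For H2AK119ub, 13 pairs (1.36%) were marked in NCI-H661 alone, against 9.50% of solitary promoters, and 7 pairs (0.731%) in NCI-H1299 alone, against 0.389%.

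DPPA2 and DPPA4 narrow peaks were frequent at the pairs, and their consensus was less frequent than at solitary CpG island promoters. In single lists limited to CpG island windows, DPPA2 lay at 78.2% and 55.3% of pairs, against 80.4% and 56.7% of solitary promoters. DPPA4 lay at 56.5% and 47.9% of pairs, against 56.8% and 58.3%. The classes were thus close in every list but that of DPPA4 replicate 3. Of the 957 pairs 355 (37.1%) held a peak in all 4 DPPA2 and DPPA4 lists, and 165 (17.2%) in none. A consensus peak, found in both DPPA2 and both DPPA4 lists with more than 25% of each peak shared, lay at 277 pairs (28.9%, 26.2 to 31.9%). The share was 24% of all solitary promoters, 36.1% of those with a CpG island and 34.6% of lncRNA pairs, so the pairs stood above the first and below the others. On the broad islands the classes were closer, with DPPA2 at 76.1% of the pairs and 74.0% of the solitary promoters that hold a CpG island, and DPPA4 at 71.7% and 74.0%. KDM2A had a narrow peak at 121 pairs (12.6%), against 9.17% of solitary promoters, 14.3% of those with a CpG island and 16.8% of lncRNA pairs. With its broad islands KDM2A lay at 742 pairs (77.5%) against 42.8% of solitary promoters and 64.6% of those with a CpG island, so both its level and its direction against CpG island promoters depended on the kind of peak.

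Among acetylated pairs, binding went with H2AK119ub, as it did at the other acetylated promoters. Of the 98 pairs with both H3K27ac and H2AK119ub in NCI-H661, 70 (71.4%, 61.8 to 79.4%) were bound by DPPA2/4, against 199 of 809 with H3K27ac alone (24.6%, 21.8 to 27.7%) and 0 of 11 with H2AK119ub alone. Of the 39 pairs with neither mark 8 (20.5%, 10.8 to 35.5%) were bound, so the pairs without H3K27ac, which were few, did not show the link. At solitary CpG island promoters 68.5% of those with both marks were bound, 35.8% with H3K27ac alone, 21.8% with H2AK119ub alone and 14.9% with neither. At lncRNA pairs the shares were 66.7%, 33.5%, 17.8% and 7.43%. Seen from the other side, H2AK119ub lay at 25.3% of bound and 5.74% of unbound pairs, KDM2A at 26.4% and 7.06%, H3K4me1 at 49.8% and 35%, and H3K27ac at 97.1% and 93.8%. SUZ12 lay at 3.97% and 2.50%. At solitary CpG island promoters H2AK119ub lay at 44.8% of bound and 30.9% of unbound promoters. SUZ12 had a peak at 8 of the 11 pairs with H2AK119ub alone, at 11 of the 98 with both marks, at 4 of the 809 with H3K27ac alone and at 5 of the 39 with neither.

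The distance between the TSSs went with DPPA2/4 and H2AK119ub. A DPPA2/4 consensus peak lay at 23.4% of pairs with at most 100 bp between the TSSs, 27.3% at 101 to 200 bp, 25.9% at 201 to 500 bp and 44.05% (36.8 to 51.6%) at 501 to 1000 bp. H2AK119ub rose over the same bins, at 5.98% (3.37 to 10.4%), 9.69%, 12.2% and 17.9% (12.8 to 24.3%). H3K4me1 lay at 35.9%, 30.8%, 40.5% and 51.8%, while KDM2A lay between 10.6% and 15.5%, with overlapping intervals. H3K27ac lay at 93.5%, 90.7% (86.3 to 93.9%), 97.1% (94.9 to 98.4%) and 96.4%, so it was lowest at 101 to 200 bp. A wider gap gives a longer window, so the bins were repeated in a fixed 3000 bp window around the midpoint, where the widest bin had DPPA2/4 at 44.05%, H2AK119ub at 17.3% and H3K4me1 at 46.4%.

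**Figure D5:**
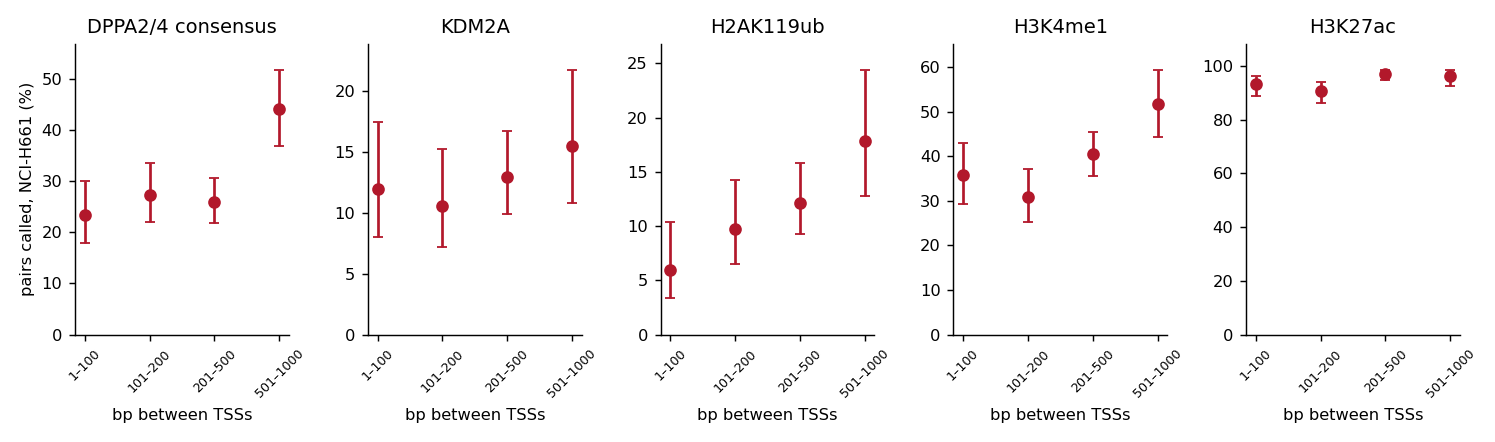
Percentage of divergent pairs with a called mark or peak in NCI-H661, by the distance between the TSSs in bp (184, 227, 378 and 168 pairs from left to right); bars are 95% Wilson intervals. DPPA2/4 is at 23.4 to 27.3% up to 500 bp and at 44.05% beyond, and H3K27ac is at 90.7 to 97.1% throughout.

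Most peak summits of DPPA2 and DPPA4 lay inside the genes, but so does most of each window, so that alone says little. The highest summit fell between the TSSs in 5.28% and 14.2% of pairs with a DPPA2 peak and in 12.2% and 3.32% of those with a DPPA4 peak, where the stretch between the TSSs made up 8.59% of the windows. The replicates of each factor therefore lay on different sides of that share. Summits stood on both sides of the pair in 42.7% and 25.6% of the pairs for DPPA2 and in 27.1% and 24.3% for DPPA4. The median summit lay 287 and 232 bp (DPPA2) and 236 and 354 bp (DPPA4) inside the nearer gene, and at solitary promoters 66.0 to 76.3% of summits were likewise downstream of the TSS.

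SDF4/B3GALT6 (SDF4 is a calcium-binding protein of the Golgi and B3GALT6 a galactosyltransferase for proteoglycan linkers) had the highest-ranked DPPA2/4 peaks of the pairs outside the duplicated BOLA2 and SLX1 region, with DPPA2 peaks enriched 46.2 and 33.9 times over input and DPPA4 peaks 19.2 and 20.9 times. Its H3K27ac reads were 190 and 492 in NCI-H661, 16 and 40 in the controls and 138 and 34 with DOX. H2AK119ub passed in 1 library of NCI-H661 (0 and 38 reads) and 1 control (0 and 27), and SUZ12 and KDM2A had no peak. FAM229A/TSSK3, whose sequence lacks all 7 motifs, was also among the 10 highest-ranked pairs, with folds of 28.3, 15.2, 12.2 and 14.3. At BOLA2B/SLX1A the folds were 64.5, 33.8, 25.7 and 23.7 with no H3K27ac in NCI-H661, in the duplicated region named above.

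Other strongly bound pairs carried H2AK119ub as well. GGN/SPRED3, of a germ cell gene and a Sprouty-related inhibitor of MAP kinase signaling, had DPPA2 folds of 37.5 and 18.2, 517 and 2400 H3K27ac reads and 105 and 597 H2AK119ub reads in NCI-H661. OBSL1/INHA, of a cytoskeletal adaptor and the inhibin alpha subunit, had DPPA2 folds of 42.7 and 13.2, 51 and 154 H3K27ac reads and 62 and 146 H2AK119ub reads, with a KDM2A peak of fold 6.31. FOXL2/FOXL2NB, of the ovarian transcription factor FOXL2, had DPPA2 folds of 45.7 and 21.1, and H2AK119ub passed in 1 of 2 libraries there (0 and 267 reads). Both H2AK119ub libraries thus marked GGN/SPRED3 and OBSL1/INHA, and 1 marked FOXL2/FOXL2NB.

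SUZ12 was highest at pairs without acetylation. Its fold was 19.7 at TMEM176B/TMEM176A (membrane proteins of antigen-presenting cells), 14.0 at DUOX2/DUOXA2 (the dual oxidase of thyroid and its maturation factor) and 13.2 at COL4A1/COL4A2. All 3 had 0 H3K27ac reads in all 6 libraries. Their H2AK119ub reads in NCI-H661 were 97 and 352, 121 and 520, and 43 and 286, against 0 in the 2 controls. With DOX they were 12 and 0 at TMEM176B/TMEM176A, 15 and 14 at DUOX2/DUOXA2, and 0 and 0 at COL4A1/COL4A2. The other basement membrane pair, COL4A4/COL4A3, had a SUZ12 fold of 8.70 and H2AK119ub in every library (105 and 126 reads in NCI-H661, 31 and 34 in controls, 23 and 29 with DOX). DOCK4/ZNF277 and ANKRD27/RGS9BP differed from these, since SUZ12 folds of 11.7 and 11.2 stood beside H3K27ac in both NCI-H661 libraries (38 and 57, and 182 and 361 reads).

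Of 16 pairs known as bidirectional and listed as examples, 13 met the rule. HSPD1/HSPE1 had 354 and 674 H3K27ac reads in NCI-H661, 112 and 133 in the controls and 310 and 189 with DOX. NPAT/ATM, of the histone gene activator NPAT and the DNA damage kinase ATM, had 128 and 168, 73 and 37, and 183 and 78. SURF1/SURF2, with its pair of GC boxes, had 48 and 132, 24 and 33, and 112 and 33. No H3K27ac library missed these 3 pairs. HARS1/HARS2, the pair with the ETS matches, had 43 and 113 in NCI-H661, 0 and 0 in the controls and 121 and 20 with DOX, so every library but the controls held an island. Its H3K36me3 reads were above 0 in all 6 libraries (151 and 68, 47 and 26, and 42 and 124), and both genes were covered by H3K36me3 over at least 31.5% of their length in each. SARS2/MRPS12, with 4 CCAAT boxes, had 662 and 1284 H3K27ac reads in NCI-H661 and 26 to 135 in NCI-H1299. PPAT/PAICS, both of purine synthesis, had 251 and 516, 38 and 65, and 161 and 41. SIRT3/PSMD13, of a mitochondrial deacetylase and a proteasome subunit, had 82 and 141, 21 and 22, and 89 and 25, without H2AK119ub or H3K36me3 islands in any library.

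The NCI-H1299 comparison set cells given DOX for 7 days, to induce DPPA2 and DPPA4, against cells given water. No library came from cells without the transgenes, so an effect of DPPA2 and DPPA4 and one of doxycycline itself cannot be told apart. Presence of H3K27ac was gained (both DOX libraries and neither control) at 48 pairs (5.02%) and lost at 1 pair. At solitary promoters 5% were gained and 0.104% lost, shares of all promoters close to those of the pairs. Of the 957 pairs, 736 were already marked in both controls and 91 in neither. Gains were thus 48 of 91 unmarked pairs, against 527 of 6343 unmarked solitary promoters and 89 of 451 unmarked lncRNA pairs. These sets were not matched for CpG islands, which lay in 97.7% of all pairs, 64.0% of all solitary promoters and 94.7% of all lncRNA pairs. DOX replicate 1 had the longest H3K27ac list (49726 islands, against 28105 to 35357 in the others), and no read count of the windows themselves was available to level it.

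The H3K27ac gains with most reads were PLOD3/ZNHIT1 (a collagen-modifying enzyme and a chromatin remodeling subunit), with 0 and 0 reads in controls and 294 and 95 with DOX, ATP5ME/MYL5 (an ATP synthase subunit and a myosin light chain), with 0 and 0 and then 275 and 113, and DST/BEND6 (the cytoskeletal linker dystonin and a BEN domain protein), with 0 and 0 and then 244 and 108. DOX replicate 1 was the higher in each. The 1 loss was MRPL10/LRRC46 (MRPL10 is a mitochondrial ribosomal protein), with 61 and 27 reads in the controls and 0 and 0 with DOX, and its H3K4me1 reads were 72 and 91 in the controls and 38 and 26 with DOX.

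H2AK119ub was gained at 53 pairs (5.54%) against 2.65% of solitary promoters and lost at 17 (1.78%) against 2.18%. It was gained at 2.83% of the lncRNA pairs. Among pairs bound by DPPA2/4 in NCI-H661, 22 of 277 (7.94%) gained it and 9 (3.25%) lost it, and among unbound pairs 31 of 680 (4.56%) gained it and 8 (1.18%) lost it. H3K27ac was gained at 5.78% of bound and 4.71% of unbound pairs, H3K4me1 at 4.33% and 2.50%, and H3K36me3 at 4.69% and 4.71%. The leading H2AK119ub gain was EEF1D/TIGD5 (a translation elongation factor subunit and a transposase-derived gene), with 0 and 0 reads in the controls and 61 and 149 with DOX. VPS9D1/ZNF276 had 0 and 0 and then 58 and 137, ATP5ME/MYL5 0 and 0 and then 55 and 102, and TAP1/PSMB9 0 and 0 and then 60 and 80. Of these 4 gains with most reads, ATP5ME/MYL5 had no H2AK119ub island in NCI-H661 and the others were marked in both of its libraries. TMEM276/KIFC2 followed with 47 and 90, TMEM129/TACC3 with 51 and 68, ARL16/HGS with 36 and 68, and CENPX/LRRC45 (CENPX is a kinetochore and DNA repair protein) with 35 and 67, each from 0 in both controls. The leading loss was CTDNEP1/ELP5, with 12 and 116 in the controls and 0 and 0 with DOX.

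H3K4me1 was gained at 29 pairs (3.03%) and lost at 10 (1.04%), shares like those of solitary promoters (3.15% and 1.04%). H3K36me3 was gained at 45 pairs (4.70%) against 1.49% of solitary promoters and lost at 16 (1.67%) against 0.550%. Some pairs gained several marks. ATP5ME/MYL5 gained H3K27ac, H2AK119ub, H3K4me1 and H3K36me3, each from 0 in both controls, and CENPX/LRRC45 gained H3K27ac, H2AK119ub and H3K4me1. CDCA3/USP5 (a mitotic regulator and a ubiquitin protease) had the most H3K36me3 reads among gains, 0 and 0 and then 216 and 723. H3K9me3 was gained at MORC2/TUG1 alone, with 15 and 19 reads, and lost at none.

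Read counts were tested where islands covered at least 50% of a joined region in all 4 libraries of a mark, with edgeR's quasi-likelihood test, the replicate number as a block and Benjamini-Hochberg adjustment over all such regions of the mark. A region was called at an adjusted p below 0.05 and a log2 change of at least 0.5. The test thus leaves out the gained and lost pairs above, which lack islands in some libraries. For H3K27ac, 298 regions lay at 297 pairs and 0 were called, beside 0% of the 3317 regions tested. At an unadjusted p under 0.05 there were 6, and DESeq2 also called 0. The median log2 change at pairs was -0.0069, with the middle 50% of regions between -0.14 and 0.13. The libraries were scaled by TMM on the tested regions, which sets the typical change near 0, and the median over all 3317 regions was 0.0015. The median at pairs is thus relative to the other tested regions. A change shared by most regions of a mark would be removed by the scaling and was not tested.

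For H3K4me1, 1 of 253 regions at 241 pairs was called, beside 0.251% of 6764 regions. It was chr6:27831701-27837300, which overlapped the edge of the window of the histone pair H2AC15/H2BC15 and lay mostly outside it. The region ended before both TSSs of the pair (27838375 and 27838569). Its counts were 172 and 223 in the controls and 165 and 110 with DOX, a log2 change of -0.66 with an edgeR adjusted p of 0.0441. The median over the regions at pairs was -0.10 and 87 of 253 were higher with DOX, beside a median of -0.067 at solitary promoters and -0.0025 over all regions. The single call was lost when the replicate block was dropped, with DESeq2 and with counts per covered length. It did not hold with a library left out either, but those fits also dropped the block and joined the regions anew, so they are no separate check.

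For H3K36me3, 1 of 241 regions at 223 pairs was called, beside 0.265% of 6414 regions. The region at DNAJC30/BUD23, chr7:73684601-73715600, begins inside BUD23 and had counts of 737 and 689 in the controls and 1248 and 1127 with DOX, a log2 change of 0.51 with an edgeR adjusted p of 0.000904. Both DOX counts stood above both control counts. At 0.51 the change lay close to the limit of 0.5, and DESeq2 with the block and counts per covered length called 0 regions at pairs. The call did not hold in every fit with a library left out, and those fits also dropped the replicate block and joined the regions anew. The promoter of this pair, with 1 CCAAT box and 2 overlapping GC boxes in the sequence above, had H3K27ac in all 6 libraries and no H2AK119ub in any. For H2AK119ub, 3 regions lay at pairs (ZFYVE28/CFAP99, CHPF/TMEM198 and GALNS/TRAPPC2L) and 0 were called by edgeR or DESeq2, beside 0% of 124, with 0 at an unadjusted p under 0.05. For H3K9me3, 0 of the 62 regions tested lay at a pair and 0% were called.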

How the data were processed

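The authors trimmed reads with Trim Galore 0.6.6, aligned them to hg38 (GRCh38.p13) with BWA 0.7.13, used SAMtools 1.9, Picard 2.6.0 and deepTools 3.5.0, and called peaks per library against input with EPIC2 (38 island lists) and MACS2 (6 narrow peak lists). NCI-H1299 libraries held a mouse spike-in, which was not used here. The deposited islands hold ChIP and input read counts, p-values and FDRs, a score and a log2 fold, and the deposited narrow peaks hold a fold enrichment (a ratio), a score and −log10 of p and q values. All are the authors' own values. Of 2840565 peaks and islands, 0 ended past a chromosome of the hg38 reference used here. Reads in islands, the only measure of depth used, totaled 488201 to 6961886 per NCI-H661 library and 137991 to 3657645 per NCI-H1299 library.

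Peaks on standard chromosomes were kept at a log2 fold above 1 and FDR below 0.05, and the authors' blacklist was not applied. Genes and sequences came from GENCODE 44 and its hg38 genome. CpG islands were taken as stretches of 500 bp with GC of 55% or more whose CpG count reached 0.65 of that expected. The members, gene lists and tests were chosen with earlier results of these data known. Named pairs were fixed examples, the 10 with the highest lowest DPPA2/4 fold percentile, the 10 with the highest SUZ12 folds, up to 10 per mark called, gained or lost with DOX or marked in 1 line only, and pairs of 8 gene groups by symbol. Labels do not say whether replicates came from separate cultures, so their spread may be technical. Results for a further marker list and for an example pair are not reported here. No 2 libraries of a group were duplicates, since at most 53 islands shared span and count.

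DOX was tested with edgeR 4.0.16 (TMM, quasi-likelihood, R 4.3.3), after a check on simulated data, and DESeq2 1.42.0 was an alternative. Control and DOX libraries of the same number were paired because the study made replicates in complete batches. Deviations of same-numbered libraries from their group means correlated at 0.263 (H3K27ac), 0.104 (H2AK119ub), 0.0391 (H3K4me1), 0.0769 (H3K36me3) and 0.0549 (H3K9me3). Alternatives varied the fold limit, window, overlap, replicates, TSS distance, definition of solitary, CpG restriction, peak kind, normalization and test.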

Additional observations from a re-analysis of the deposited data

Results flagged for a closer look

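H2AK119ub at the pairs differed between the lines relative to solitary promoters. The share of pairs minus the share of solitary promoters averaged -17.5 percentage points over the 2 NCI-H661 libraries and 4.19 over the 4 NCI-H1299 libraries, and every NCI-H661 library was below 0 and every NCI-H1299 library above it. This difference was noted because all libraries of a line moved one way, and it was not tested. With both classes limited to CpG islands, the ratio of pairs to solitary promoters was 0.391 and 0.452 in NCI-H661 and 0.781 to 1.02 in NCI-H1299, so the sign in NCI-H1299 depended on that restriction. The NCI-H1299 lists were shorter, and the part of list length was not tested.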

How the results depend on the processing

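Differences are pairs minus solitary promoters in percentage points. In NCI-H661 they were 47.1 for H3K27ac, -15.3 for H2AK119ub, 12.8 for H3K36me3, 4.96 for DPPA2/4 and -15.9 for SUZ12. With CpG island windows only they were 28.5, -24.5 and, for SUZ12, -22.8, and DPPA2/4 turned to -6.81. H3K36me3 turned to -0.72 with a 500 bp flank, where it was called at 0.418% of pairs and 1.14% of solitary promoters. Calls in at least 1 replicate gave 37.3 for H3K27ac and 35.3 for H3K36me3, and solitary promoters defined by coding TSSs gave 41.4 for H3K27ac. A log2 fold above 2 gave -9.04 for H2AK119ub and -14.7 for SUZ12. SUZ12 was at -14.5 with a 500 bp flank and -19.8 from islands. DPPA2/4 was at 1.31 with over 50% overlap, 9.95 from islands and 0.850 for TSSs within 300 bp. Leaving out 1 replicate gave 38.3 to 46.2 for H3K27ac, -20.9 to -14.0 for H2AK119ub, 13.5 to 34.5 for H3K36me3 and 4.70 to 9.10 for DPPA2/4. The cause of these shifts was not tested. Over these results and those with DOX below, 93 values stayed within a set spread (counts within 1.5 times), 42 moved further and 2 reversed. The spread came from the 2 replicates, or from a Wilson interval over pairs for DPPA2/4 and SUZ12. For H3K36me3 it was 14.8 points, wider than the difference of 12.8 itself, so staying within it says little there.

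Among the others, H2AK119ub in the NCI-H1299 controls (-0.989) turned to 0.0720 with a log2 fold above 2, 0.102 with no fold limit, 0.331 with a 500 bp flank, 5.45 in at least 1 replicate, and 4.39 and 0.0658 without replicate 1 or 2. KDM2A (3.48) turned to -1.38 in CpG islands and -0.97 over the 1500 bp inside each gene, an alternative added after the data were seen. H3K4me1 in NCI-H661 (12.1) turned to -4.18 with a 500 bp flank. H3K9me3 with DOX (0.143) turned to -0.047 with a 500 bp flank, -0.066 in a centered window, -0.028 with 200 bp covered, -0.311 in at least 1 replicate, from -0.302 to 0.134 when 1 replicate was left out, and -0.171 for TSSs within 300 bp, on at most 3 pairs in the main count.

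Without the replicate block edgeR called 0 regions at pairs for H3K4me1, against 1 with it, and the block changed no other count at pairs. H3K4me1 also had 0 with DESeq2, with no coverage minimum and with counts per covered length. H3K36me3 had 0 with DESeq2, 18 with no coverage minimum and 0 with counts per covered length. Fits with 1 library left out had no replicate block and newly joined regions, so they changed more than the library. With no coverage minimum, H2AK119ub had 220 and H3K9me3 10, by construction from regions listed in some libraries only. H3K27ac gains were 177 and losses 28 with a log2 fold above 2. Leaving out 1 library gave 50 to 135 for gains and 2 to 8 for losses. The requirement of 50% coverage in all 4 libraries left 62 H3K9me3 and 124 H2AK119ub regions to test, of 52299 and 78272 without it.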
